A study of Mus musculus with 16 samples.

Results

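The Notch genes described here are 10 genes taken by name from the 22911 genes that the probes of the array could be assigned to. They are the ligands Jag1, Jag2 and Dll1, the receptors Notch1 and Notch2, and the target genes Hes1, Hey1, Hey2, Heyl and Nrarp. Each was measured by 1 probe. Of the 10, 9 were measured well above background by every array of some group and were tested among 15394 genes in all. Nrarp failed this on each of the 16 arrays and was not tested.

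Microarrays of the 1-colour Agilent type were hybridised with RNA of primary fibroblasts that had been freed from mouse lung by enzymes. The mice were labelled female and 8 weeks old. They were wild type C57BL/6J or Meflin knockout. Meflin is the product of Islr, a surface protein tethered to the membrane of fibroblasts and their progenitors. Cells of each genotype received vehicle or recombinant TGF-β1 at 5 ng/ml for 48 h, which gave 4 groups of 4 arrays: wild type vehicle, wild type TGF-β1, knockout vehicle and knockout TGF-β1. The labels give no strain for the knockout, so its genetic background and the loss of Meflin cannot be told apart. The design names 4 independent experiments a group but does not tie arrays to mice, so the p-values measure the spread between these experiments and not between known animals. The comparisons ask how the 2 genotypes responded to TGF-β1 and how they differed with and without it.

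Notch receptors are single-pass membrane proteins that are switched on by Jagged and Delta ligands on a neighbouring cell. Ligand binding lets ADAM proteases and then the gamma-secretase complex cut the receptor, and the freed intracellular domain enters the nucleus, where it joins the DNA-binding protein RBPJ and a Mastermind coactivator. The classical targets are the HES and HEY repressors and Nrarp, a feedback inhibitor that destabilises the active complex. In the lung the pathway is known for its part in airway cell fate, in vessels and in the mural cells around them, and TGF-β is known to raise Jag1 and some HES and HEY genes in several cell types.

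The 16 arrays lay on 2 slides, each with 2 arrays of every group. Their 75th percentiles of intensity ranged from 382 to 526, with 31322 to 35472 probes well above background on an array, and the lowest correlation between replicates was 0.99587 across genes. The deleted gene followed the labels: the 4 wild type vehicle arrays gave Islr a normalised log2 signal of 10.82 ± 0.06 (SD, n = 4) and those of wild type TGF-β1 gave 8.34 ± 0.08, whereas every knockout array left it near background. All 10 listed fibroblast markers, among them Col1a1 and Pdgfra, were well above background in every group, but their levels moved. TGF-β1 raised 6 and lowered 4 of them in wild type cells, beside 41.3% and 27.3% of all genes. It raised 5 and lowered 5 in knockout cells, beside 46.6% and 35.9%. Between genotypes with TGF-β1, 2 were higher and 5 lower in knockout cells, beside 39.7% and 30.5%. Col1a1 rose by 0.74 ± 0.04 (SE) on the log2 scale and Pdgfra fell by 2.21 ± 0.05 in knockout cells. Markers of other cell types were measured too: all 12 endothelial markers were well above background on all 4 arrays of 3 groups, and 11 of them in knockout TGF-β1. In such bulk samples fewer cells of a type and less RNA per cell cannot be told apart.

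The starts of a pair of these genes are shown here, from RefSeq on build GRCm38.p6, each with a short sequence found in it. Their responses to TGF-β1 differed between the genotypes, as did those of Notch2, Hes1 and Heyl, which are not shown. Jag1 rose in knockout cells and Hey2 fell in wild type cells. Hey2 was close to background, and its wild type fall did not pass under a further background correction given below. Of the 10 genes, 7 had a window in the RefSeq promoter table, which runs from 250 bases before to 50 bases after each annotated start. Hes1, Hey1 and Heyl had no window there and were not searched. The windows were searched on both strands for TGGGAA, the core that RBPJ reads, for CAGAC, a box read by SMAD proteins, for the E-box CACGTG and for the N-box CACNAG, the last 2 being sites of HES and HEY repressors. In Hey2, on the minus strand at chr10:30842781-30843033, the capitals mark the RBPJ core, reversed at positions -207 to -202 and forward at -3 to 2, counted from 0 at the start.

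Hey2: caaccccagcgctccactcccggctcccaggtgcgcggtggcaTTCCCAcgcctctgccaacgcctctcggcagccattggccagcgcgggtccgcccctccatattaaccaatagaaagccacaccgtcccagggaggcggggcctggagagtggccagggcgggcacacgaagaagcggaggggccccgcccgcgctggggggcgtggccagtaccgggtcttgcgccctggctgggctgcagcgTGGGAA

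In Jag1, on the minus strand at chr2:137116521-137116770, the capitals mark the CAGAC box at positions -209 to -205.

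Jag1: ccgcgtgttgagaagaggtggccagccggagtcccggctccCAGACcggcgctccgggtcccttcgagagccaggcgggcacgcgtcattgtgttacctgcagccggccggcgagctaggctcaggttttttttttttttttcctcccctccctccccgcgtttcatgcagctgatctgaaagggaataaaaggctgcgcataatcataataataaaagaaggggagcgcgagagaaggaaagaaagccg

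The RBPJ core stood in Hey2 alone among the 7 genes searched, which leave out Hes1, Hey1 and Heyl, and in 25.6% of the windows of all genes. The CAGAC box stood in Dll1, Jag1 and Nrarp and in 49.6% of all windows. The N-box stood in Dll1, Notch1, Notch2 and Nrarp and in 42.5% of all windows, and the E-box stood in Nrarp and in 7.15% of all windows. These matches describe the letters of the windows, and binding was not measured here.

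**Figure D1:**
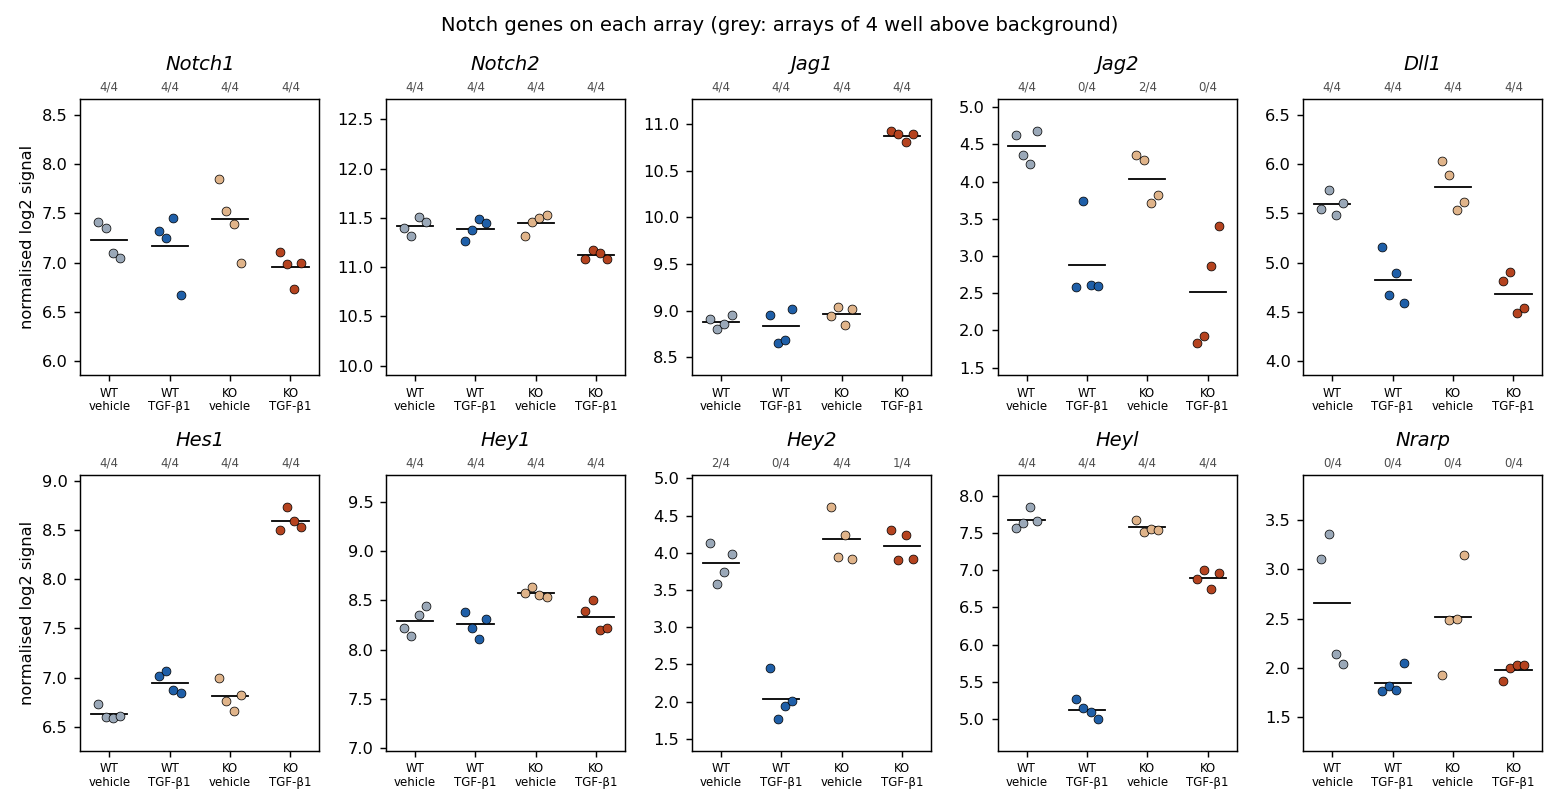
Normalised log2 signal (vertical axis, a separate range for each panel) of the 10 Notch genes on each array, by group (horizontal axis, 4 arrays each); points are arrays, bars are group means, and the grey fractions give how many of the 4 arrays lay well above background. The knockout TGF-β1 arrays of Jag1 (10.81 to 10.93) and Hes1 (8.50 to 8.73) lie above all other arrays, and the wild type TGF-β1 arrays of Heyl (5.00 to 5.26) lie below all others.

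Among the ligands, Jag1, a Jagged ligand for all Notch receptors, rose with TGF-β1 in knockout cells and did not pass the test in wild type cells. Its normalised log2 signal on replicates 1 to 4 was 8.91, 8.80, 8.86 and 8.95 in wild type vehicle and 8.95, 8.65, 8.68 and 9.02 in wild type TGF-β1. In knockout cells it was 8.94, 9.04, 8.84 and 9.02 with vehicle and 10.93, 10.90, 10.81 and 10.90 with TGF-β1. Each knockout TGF-β1 array thus lay above every other array, while the other 3 groups overlapped. The difference between TGF-β1 and vehicle was 1.92 ± 0.08 (SE) on the log2 scale in knockout cells, a 3.79-fold rise (adjusted p = 3.3e-12), and -0.05 ± 0.08 in wild type cells (adjusted p = 0.543, 95% interval -0.22 to 0.11). With TGF-β1, knockout cells held 4.17-fold more Jag1 RNA than wild type cells (log2 difference 2.06 ± 0.08, adjusted p = 5.24e-12), and 87 of the 15394 genes differed at least as far in that direction. With vehicle the genotypes differed by 0.08 ± 0.08 (adjusted p = 0.549). The response of Jag1 differed between the genotypes by 1.98 ± 0.11 (adjusted p = 1.09e-09), and it was 1.98 on each slide taken alone.

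The other ligands, Dll1 and Jag2, fell with TGF-β1 in both genotypes. Dll1, a Delta ligand, had a normalised log2 signal of 5.48 to 5.74 in wild type vehicle, 4.59 to 5.16 in wild type TGF-β1, 5.53 to 6.03 in knockout vehicle and 4.49 to 4.90 in knockout TGF-β1. The vehicle and TGF-β1 arrays did not overlap within either genotype. Dll1 fell 1.7-fold in wild type cells (log2 difference -0.77 ± 0.14, adjusted p = 0.000138) and 2.12-fold in knockout cells (-1.08 ± 0.14, adjusted p = 2.43e-06). The difference between these responses was -0.32 ± 0.19 and did not pass the test (adjusted p = 0.171, 95% interval -0.73 to 0.10). Under normexp background correction, whose offset compresses dim probes, the falls passed at -0.21 in both genotypes.

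Jag2, the second Jagged ligand, was dim. Its normalised log2 signal was 4.63, 4.36, 4.24 and 4.68 in wild type vehicle, all well above background, and 2.58, 3.74, 2.61 and 2.60 in wild type TGF-β1, none well above it. In knockout cells it was 4.35, 4.29, 3.71 and 3.82 with vehicle, well above background on 2 of 4 arrays, and 1.83, 1.92, 2.87 and 3.40 with TGF-β1, on none. The TGF-β1 arrays lay below the vehicle arrays in both genotypes, and the spread within the TGF-β1 groups was wide. Jag2 fell in wild type cells (log2 difference -1.59 ± 0.33, adjusted p = 0.000605), which is at least 1.51-fold lower when the wild type vehicle mean is set against, on each dim array, the lowest signal called well above background or the signal of Jag2 there, whichever is higher. Jag2 entered the tests only through wild type vehicle, its brightest group, so the comparisons that use that group are not independent of that filter. These are its wild type fall, its vehicle difference and the difference of its responses. Jag2 also fell in knockout cells (-1.54 ± 0.33, adjusted p = 0.00057), where background allows no fold. Under normexp correction neither fall passed, with -0.06 in wild type and 0.02 in knockout cells. The knockout fall was -2.44 on slide 1 and -0.63 on slide 2, and with TGF-β1 the genotypes differed by -0.38 ± 0.33 over both slides (adjusted p = 0.323), -1.29 on slide 1 and 0.53 on slide 2, of which slide 1 passed.

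Both receptors were measured on all 16 arrays and moved little. Notch2 had a normalised log2 signal of 11.32 to 11.51 in wild type vehicle, 11.26 to 11.49 in wild type TGF-β1, 11.32 to 11.53 in knockout vehicle and 11.08 to 11.17 in knockout TGF-β1. The knockout TGF-β1 arrays lay below all others, and the other 3 groups overlapped. Notch2 fell in knockout cells by 0.33 ± 0.06 on the log2 scale (adjusted p = 8.08e-05), differed by -0.03 ± 0.06 in wild type cells (adjusted p = 0.693), and was lower in knockout than in wild type cells with TGF-β1 (-0.27 ± 0.06, adjusted p = 0.00067). Its response differed between the genotypes by -0.31 ± 0.08 (adjusted p = 0.00523). On slide 1 alone the last 2 differences were -0.19 and -0.23 and did not pass, and under quantile normalisation the wild type difference passed at -0.14 and the knockout fall was -0.53.

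Notch1 had a normalised log2 signal of 7.05 to 7.41 in wild type vehicle, 6.67 to 7.45 in wild type TGF-β1, 7.00 to 7.85 in knockout vehicle and 6.73 to 7.11 in knockout TGF-β1, so that all 4 groups overlapped. It fell with TGF-β1 in knockout cells by 0.48 ± 0.18 (adjusted p = 0.0214), and the wild type difference of -0.05 ± 0.18 did not pass (adjusted p = 0.803, 95% interval -0.44 to 0.33). The knockout fall did not pass without knockout vehicle replicate 1 (-0.34) or knockout TGF-β1 replicate 3 (-0.41), on slide 2 alone (-0.33) or under quantile normalisation (-0.35). The responses of Notch1 differed by -0.43 ± 0.25 and did not pass (adjusted p = 0.16), but did at -0.59 without wild type TGF-β1 replicate 4, at -0.57 without knockout vehicle replicate 4 and at -0.54 on slide 1. Without the same wild type replicate the difference between genotypes with TGF-β1 passed at -0.38, against -0.21 ± 0.18 with all arrays (adjusted p = 0.297). When arrays were matched at their medians instead of their 75th percentiles, which moved the median of all genes in knockout cells from 0.10 to 0.34, neither receptor's fall passed, with -0.24 for Notch1 and -0.09 for Notch2.

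The target genes split by gene and by genotype. Hes1, the HES repressor most widely induced by Notch and by other signals, rose in both genotypes and further in knockout cells. Its normalised log2 signal was 6.73, 6.60, 6.59 and 6.61 in wild type vehicle and 7.02, 7.07, 6.88 and 6.84 in wild type TGF-β1. In knockout cells it was 7.00, 6.76, 6.66 and 6.82 with vehicle and 8.50, 8.73, 8.59 and 8.53 with TGF-β1. The knockout TGF-β1 arrays stood above all others, and the wild type TGF-β1 arrays stood above those of wild type vehicle. The rise was 1.25-fold in wild type cells (log2 difference 0.32 ± 0.07, adjusted p = 0.00136) and 3.43-fold in knockout cells (1.78 ± 0.07, adjusted p = 5.25e-12). The responses differed by 1.46 ± 0.10 (adjusted p = 2.08e-08), with 1.36 on slide 1 and 1.56 on slide 2. With TGF-β1 Hes1 was 3.11-fold higher in knockout than in wild type cells (adjusted p = 4.64e-11), and with vehicle the difference of 0.18 ± 0.07 did not pass (adjusted p = 0.135).

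Heyl, a HEY repressor that is a Notch target in vascular mural cells, fell in both genotypes and further in wild type cells. Its normalised log2 signal was 7.57, 7.64, 7.86 and 7.66 in wild type vehicle and 5.26, 5.15, 5.09 and 5.00 in wild type TGF-β1. In knockout cells it was 7.68, 7.52, 7.56 and 7.55 with vehicle and 6.88, 7.00, 6.75 and 6.96 with TGF-β1. The vehicle groups overlapped, the knockout TGF-β1 arrays lay below both, and the wild type TGF-β1 arrays lay lowest. Heyl fell 5.89-fold in wild type cells (log2 difference -2.56 ± 0.07, adjusted p = 2.99e-13), and 103 of the 15394 genes fell at least as far. It fell 1.6-fold in knockout cells (-0.68 ± 0.07, adjusted p = 3.88e-07). The responses differed by 1.88 ± 0.10 (adjusted p = 1.03e-09), with 1.74 on slide 1 and 2.01 on slide 2, and with TGF-β1 Heyl was 3.42-fold higher in knockout than in wild type cells (adjusted p = 1.47e-11). Under normexp correction the falls passed at -1.40 and -0.42, the difference of the responses at 0.98 and that between genotypes with TGF-β1 at 0.93.

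Hey2, a HEY repressor of heart and vessels whose start is printed above, was close to background. Its normalised log2 signal was 4.13, 3.58, 3.74 and 3.98 in wild type vehicle, well above background on 2 of 4 arrays, and 2.45, 1.77, 1.94 and 2.01 in wild type TGF-β1, on none. In knockout cells it was 4.62, 3.94, 4.24 and 3.92 with vehicle, on 4 of 4 arrays, and 4.31, 3.90, 4.24 and 3.91 with TGF-β1, on 1. The wild type TGF-β1 arrays lay below all others, and the other 3 groups overlapped. The wild type fall passed the test (log2 difference -1.82 ± 0.18, adjusted p = 3.35e-07), with no fold given because the probe sank into background. In knockout cells the difference was -0.09 ± 0.18 (adjusted p = 0.645, 95% interval -0.48 to 0.30). With TGF-β1 Hey2 was higher in knockout than in wild type cells (log2 difference 2.05 ± 0.18, adjusted p = 7.77e-08), again with no fold, since 1 of the 8 arrays compared lay well above background, and the responses differed by 1.73 ± 0.25 (adjusted p = 3.34e-05). Under normexp correction the wild type fall was -0.07 and did not pass, the knockout difference passed at 0.14, and the differences between genotypes with TGF-β1 and between responses passed at 0.42 and 0.22. With vehicle the genotypes differed by 0.32 ± 0.18 and did not pass (adjusted p = 0.262), but did under normexp at 0.21. Hey2 entered the tests only through knockout vehicle, its brightest group, so the comparisons that use that group are not independent of that filter. These are its knockout response, its vehicle difference and the difference of its responses.

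Hey1, the third HEY repressor, moved little. Its normalised log2 signal was 8.14 to 8.44 in wild type vehicle, 8.11 to 8.38 in wild type TGF-β1, 8.53 to 8.64 in knockout vehicle and 8.20 to 8.50 in knockout TGF-β1. The knockout vehicle arrays lay just above all others, and the other 3 groups overlapped. Hey1 was higher in knockout than in wild type cells with vehicle (log2 difference 0.28 ± 0.08, adjusted p = 0.027), fell with TGF-β1 in knockout cells by 0.25 ± 0.08 (adjusted p = 0.00934), and differed by -0.03 ± 0.08 in wild type cells (adjusted p = 0.714). The vehicle difference did not pass without wild type vehicle replicate 1 (0.26) or 2 (0.24), without knockout vehicle replicate 2 (0.26) or 3 (0.29), or on slide 1 (0.42) or slide 2 (0.14) alone, and the knockout fall did not pass on slide 1 (-0.16) or with arrays matched at their medians (-0.01). With TGF-β1 the genotypes differed by 0.07 ± 0.08 (adjusted p = 0.423) and, matched at medians, by 0.20, which passed; the responses differed by -0.21 ± 0.11 (adjusted p = 0.116), which passed at -0.27 without knockout TGF-β1 replicate 2. Nrarp had a normalised log2 signal of 2.04 to 3.36 in wild type vehicle, 1.76 to 2.05 in wild type TGF-β1, 1.93 to 3.15 in knockout vehicle and 1.87 to 2.03 in knockout TGF-β1, all of which are bounds set by background.

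**Figure D2:**
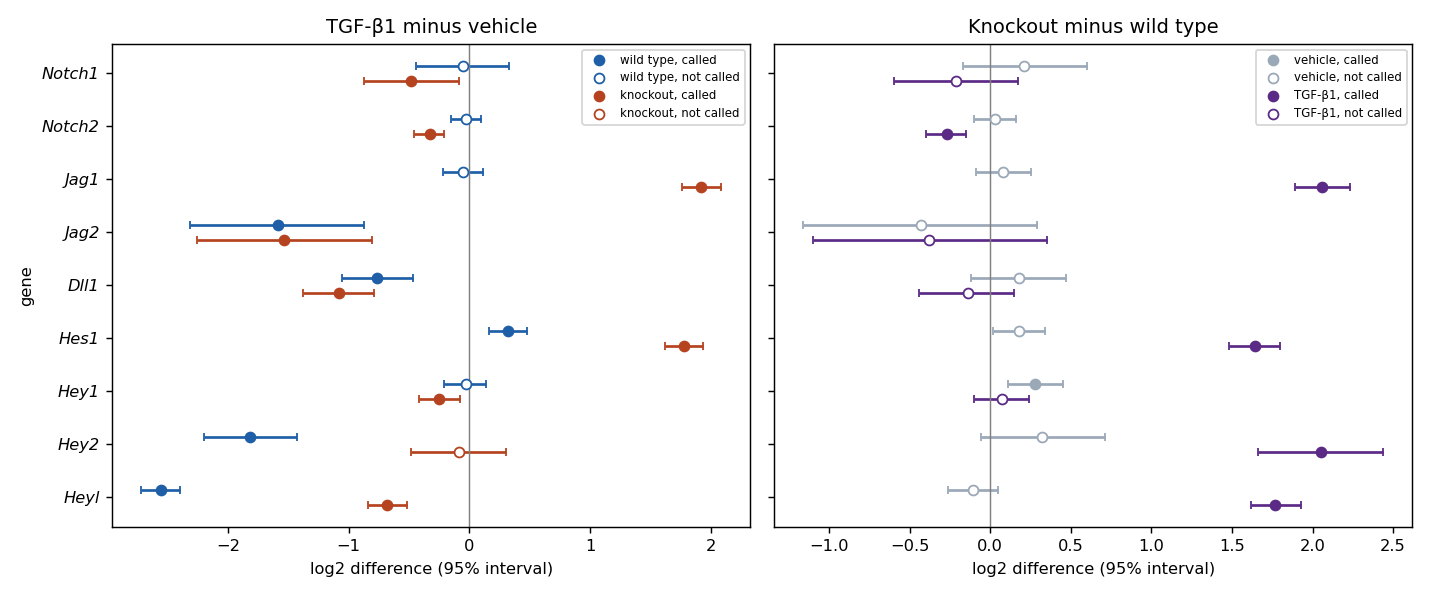
Log2 difference (horizontal axis) with its 95% interval for the 9 tested Notch genes (vertical axis): TGF-β1 minus vehicle in each genotype on the left, knockout minus wild type with each treatment on the right; filled points passed the test at an adjusted p under 0.05. Jag1 (2.06), Heyl (1.77) and Hes1 (1.64) were higher in knockout than in wild type cells with TGF-β1, and their vehicle differences were not called; the differences of Jag2 and Hey2 have no exact size, since neither was well above background on any wild type TGF-β1 array.

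Read as a group, the 9 tested genes did not move one way. In wild type cells TGF-β1 raised Hes1 and lowered Jag2, Dll1, Hey2 and Heyl, which is 5 of 9 genes called beside 68.6% of all 15394, with a median log2 difference of -0.05 beside 0.08. In knockout cells it raised Jag1 and Hes1 and lowered Notch1, Notch2, Jag2, Dll1, Hey1 and Heyl, 8 of 9 beside 82.6% of all genes, with a median of -0.33 beside 0.10. With vehicle the genotypes differed in Hey1 alone, 1 of 9 beside 13.2% of all genes, with a median of 0.18 beside 0.03. With TGF-β1, Jag1, Hes1, Hey2 and Heyl were higher and Notch2 lower in knockout cells, 5 of 9 beside 70.2% of all genes, with a median of 0.07 beside 0.06. The same 5 genes had responses that differed between the genotypes, beside 58.3% of all genes. Each count lies near or below the share of all genes beside it. The comparisons share groups, so a gene's values in one are not independent of its values in another.

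By size, the differences of the genes measured well above background ranked as follows among all genes. With TGF-β1, at least as large a difference toward knockout was seen in 0.565% of genes for Jag1, 0.806% for Heyl and 1.01% for Hes1. In wild type cells 0.669% of genes fell at least as far as Heyl, and in knockout cells 2.53% rose at least as far as Jag1. By contrast, 39.3% of genes had at least as negative a wild type difference as Notch2, and 37.1% as Notch1.

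The rest of the pathway was followed on a list of 67 further genes, of which 62 were tested. Dll3, Hes3, Hes5 and Helt missed the filter on dim probes. In wild type cells 16 rose and 21 fell with TGF-β1, with a median log2 difference of -0.06, where 41.3% of all genes rose and 27.3% fell. In knockout cells 23 rose and 31 fell, with a median of -0.13, beside 46.6% and 35.9% of all genes. With TGF-β1, 19 were higher and 26 lower in knockout than in wild type cells, beside 39.7% and 30.5% of all genes. The responses of 39 differed between the genotypes, 15 upward and 24 downward, beside 31.9% and 26.5% of all genes. The counts of the smaller groups of genes given next are to be read beside these shares. The balance of these counts turned when arrays were matched at their medians, to 28 up and 12 down in wild type cells, 30 up and 19 down in knockout cells, 30 higher and 20 lower in knockout cells with TGF-β1, and 19 responses each way. Quantile normalisation moved it further down, to 10 up and 26 down in wild type and 16 up and 35 down in knockout cells. Between genotypes with TGF-β1 it gave 18 higher and 33 lower, and for the responses 13 and 32. For the smaller groups only the median-matched counts are given. Many of these differences were small, and the genes named are mainly those that moved most.

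The remaining receptors went opposite ways. Notch4, a receptor known mainly from endothelium, averaged 9.93 ± 0.11 (SD, n = 4) in normalised log2 signal in wild type vehicle, 9.70 ± 0.09 in wild type TGF-β1, 10.02 ± 0.13 in knockout vehicle and 10.90 ± 0.03 in knockout TGF-β1. It fell by 0.23 ± 0.07 (SE) on the log2 scale in wild type cells and rose by 0.88 ± 0.07 in knockout cells, and the responses differed by 1.11 ± 0.09 (adjusted p = 1.39e-07). The wild type fall did not pass with arrays matched at their medians (-0.08). Notch3, the receptor of pericytes and smooth muscle, was 10.77 ± 0.06 (SD), 10.37 ± 0.02, 10.97 ± 0.07 and 9.64 ± 0.03 in the same 4 groups. It fell by 0.40 ± 0.04 (SE) in wild type and by 1.33 ± 0.04 in knockout cells, a difference of -0.93 ± 0.05 (adjusted p = 2.23e-09), and it was slightly higher in knockout cells with vehicle (0.19 ± 0.04, adjusted p = 0.00362). Thus with TGF-β1 knockout cells had more Jag1 and Notch4 RNA and less Notch2 and Notch3 RNA than wild type cells.

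Of the further ligands, Dll4, Dlk1 and Dner fell and Dlk2 rose in knockout cells. Dll4, a Delta ligand of vessels, was dim, well above background on every vehicle array but on 3 of 4 in wild type TGF-β1 and 1 of 4 in knockout TGF-β1. It fell by 0.52 ± 0.22 in wild type cells (adjusted p = 0.0455) and by 1.20 ± 0.22 in knockout cells (adjusted p = 0.000113), though under normexp correction these were -0.09 and -0.13 and neither passed, and the wild type fall did not pass under quantile or median scaling either, at -0.36 and -0.37. Dlk1, a membrane ligand without the domain that activates Notch, fell by 1.41 ± 0.08 in wild type and by 1.53 ± 0.08 in knockout cells, and by 1.20 and 0.89 on its other probe. Dner, another non-canonical ligand, fell by 0.77 ± 0.10 in wild type and by 0.40 ± 0.10 in knockout cells, and it was higher in knockout cells both with vehicle (0.48 ± 0.10) and with TGF-β1 (0.84 ± 0.10). Its knockout fall did not pass with arrays matched at their medians (-0.16) or under normexp correction (-0.11), where the wild type fall was -0.33 and the genotype differences 0.27 and 0.49. Dlk2, a relative of Dlk1, differed by -0.06 ± 0.10 in wild type cells (adjusted p = 0.606) and rose by 0.29 ± 0.10 in knockout cells (adjusted p = 0.0164), a difference in response of 0.35 ± 0.14 that passed (adjusted p = 0.0484) except under normexp correction (0.17).

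Of 9 tested genes of receptor cleavage, 2 rose and 3 fell in wild type cells and 4 rose and 3 fell in knockout cells, which is 5 and 7 called beside 68.6% and 82.6% of all genes, against 6 and 3 in both genotypes when arrays were matched at their medians. The gamma-secretase subunits Aph1c and Psen2 fell in both, Aph1c by 1.60 ± 0.05 in wild type and 1.97 ± 0.05 in knockout cells, and Psen2 by 0.78 ± 0.04 and 1.49 ± 0.04. Adam17, a protease that sheds many membrane proteins, fell by 0.36 ± 0.05 and 0.71 ± 0.05. Furin, which trims the receptor on its way to the surface, differed by 0.13 ± 0.07 in wild type cells (adjusted p = 0.103; 0.28 and passing with medians matched) and rose by 0.80 ± 0.07 in knockout cells (adjusted p = 2.52e-08), and its responses differed by 0.67 ± 0.09 (adjusted p = 2.61e-05).

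Of 14 genes that ubiquitinate ligands or turn receptors over, 4 rose and 5 fell in wild type cells and 3 rose and 8 fell in knockout cells, which is 9 and 11 called beside the same 68.6% and 82.6%, against 6 and 2 and 5 and 5 with medians matched. The response of 9 of the 14 was lower in knockout cells and that of 1 higher, beside 26.5% and 31.9% of all genes, against 8 and 2 with medians matched. Dtx1, a Deltex ubiquitin ligase and itself a Notch target in lymphocytes, fell by 1.93 ± 0.08 in wild type cells and fell by 2.67 ± 0.08 in knockout cells, and the responses differed by -0.74 ± 0.12 (adjusted p = 7.2e-05). Under normexp correction the falls were -1.17 and -1.26, and the difference of the responses did not pass (-0.09, adjusted p = 0.29). Dtx4, its relative, rose by 0.38 ± 0.05 in wild type cells and fell by 0.68 ± 0.05 in knockout cells, so that the responses differed by -1.06 ± 0.07 (adjusted p = 1.3e-08). Neurl1b, a ligase for Notch ligands, fell by 0.73 ± 0.09 and 1.57 ± 0.09, and Numbl, a Notch inhibitor related to Numb, rose by 0.57 ± 0.06 in wild type and 0.54 ± 0.06 in knockout cells. Among 8 genes of receptor glycosylation, 2 rose and 4 fell in wild type and 3 rose and 4 fell in knockout cells, against 3 and 1 and 4 and 2 with medians matched. Mfng, a Fringe enzyme that tunes the choice of ligand, fell by 0.79 ± 0.05 in wild type and by 0.49 ± 0.05 in knockout cells.

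In the nucleus, Rbpj differed by -0.02 ± 0.06 in wild type cells and fell by 0.19 ± 0.06 in knockout cells (adjusted p = 0.0103), a fall that became 0.05 with medians matched and did not pass. The difference of its responses, -0.18 ± 0.09, did not pass (adjusted p = 0.101), but did under quantile normalisation at -0.29. Of the 8 genes of the nuclear complex and its coactivators, 2 rose and 1 fell in wild type cells and 3 rose and 5 fell in knockout cells, against 3 and 0 and 3 and 3 with medians matched. The coactivator Maml3 fell by 0.83 ± 0.08 in knockout cells and the acetyltransferase Kat2b by 0.99 ± 0.08, and their responses differed between the genotypes by -0.66 ± 0.11 (-0.32 under normexp correction) and -0.78 ± 0.12. Of 14 corepressors, 5 rose and 3 fell in wild type cells and 6 rose and 7 fell in knockout cells, which is 8 and 13 called beside 68.6% and 82.6% of all genes, against 9 and 3 and 8 and 3 with medians matched. Ctbp2, which helps to silence genes without Notch activity, rose by 1.17 ± 0.03 in knockout cells, with a response 0.70 ± 0.05 above that of wild type cells, and Tle4, a Groucho corepressor used by HES proteins, fell by 0.69 ± 0.06 in wild type and 0.94 ± 0.06 in knockout cells.

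Of the further HES genes, 3 were tested. Hes6, which counters Hes1, rose by 0.13 ± 0.04 in wild type and 0.34 ± 0.04 in knockout cells, the former not passing under quantile normalisation (0.06). Hes7, known from the segmentation clock, differed by -0.12 ± 0.06 in wild type cells (adjusted p = 0.0761) and rose by 0.26 ± 0.06 in knockout cells. Hes2 passed in neither. With vehicle, 4 of the 62 pathway genes were higher in knockout cells (Dner, Sap30, Nedd4 and Notch3, by 0.19 to 0.48) and 3 were lower (Aph1c, Dlk1 and Psen2, by -0.34 to -0.14), the last of which did not pass with arrays matched at their medians. Of all genes, 7.06% were higher and 6.16% lower in this comparison.

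**Figure D3:**
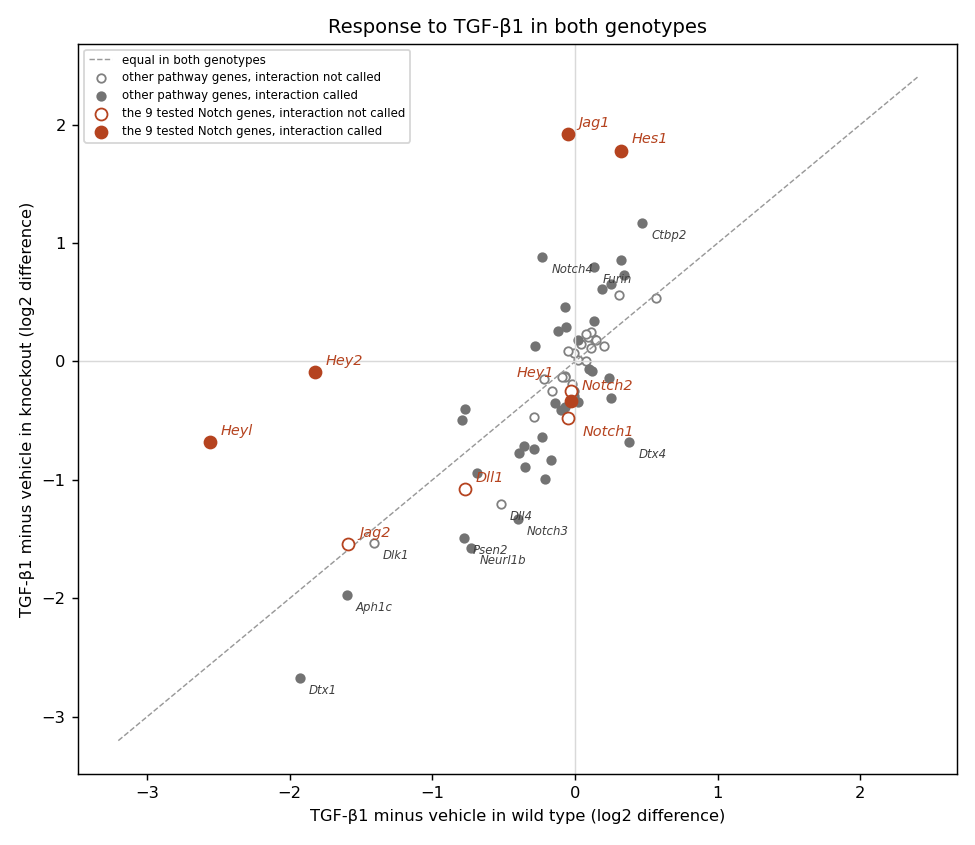
Log2 difference between TGF-β1 and vehicle in wild type cells (horizontal axis) and in knockout cells (vertical axis) for the 9 tested Notch genes (red) and 62 other pathway genes (grey); filled points had a genotype difference in response that passed the test, and the dashed line marks equal responses. Jag1, Hes1, Hey2, Heyl and Notch4 lie above the line, and Notch3 and Dtx4 lie below it.

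Markers of other cell types moved with these results. The 12 endothelial markers summed to a signal of 10500 to 10900 in wild type vehicle, 5830 to 6340 in wild type TGF-β1, 9820 to 10100 in knockout vehicle and 4190 to 4620 in knockout TGF-β1. They were lowest in the group where Jag1 and Notch4 were highest: 11 of 12 fell in wild type cells, 12 of 12 in knockout cells, and with TGF-β1 8 of 12 were lower and 0 higher in knockout than in wild type cells by limma at an adjusted p under 0.05. Of all genes, 27.3%, 35.9% and 30.5% were called lower in these 3 comparisons. The falls of Heyl, Hey2, Dll1, Jag2 and Dll4 in wild type cells went with this fall of the endothelial list. In knockout cells the median log2 difference of the list was -1.12, against -0.99 in wild type cells. Dll1, Jag2 and Dll4 fell in knockout cells too (-1.08, -1.54 and -1.20), but Heyl fell less than in wild type cells (-0.68 against -2.56). Hey2 differed by -0.09 in knockout cells and did not pass. The part of the endothelial list in these results was not tested.

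The 10 pericyte and smooth muscle markers summed to 10100 to 10600, 13800 to 14800, 10600 to 11700 and 16300 to 17200 in the same order of groups, and 5 were higher and 2 lower in knockout than in wild type cells with TGF-β1, beside 39.7% and 30.5% of all genes. The list did not move one way. In knockout cells TGF-β1 raised 7 of the 10 and lowered 3, beside 46.6% and 35.9% of all genes. Lmod1, Myh11 and Des, its smooth muscle genes, rose by 4.54, 3.63 and 2.75 in knockout cells. They also rose in wild type cells, by 3.04, 2.19 and 2.21. Among its pericyte markers Cspg4 rose by 3.05 ± 0.10 and Rgs5 by 1.27 ± 0.26 in knockout cells, whereas Abcc9 fell by 3.62 ± 0.29, Kcnj8 by 1.78 ± 0.06 and Higd1b by 0.80 ± 0.12. Rgs5 entered the tests only through knockout TGF-β1, its brightest group, and was well above background on 0 of 4 arrays of wild type TGF-β1. Abcc9 was well above it on 1 of 4 arrays of knockout TGF-β1. The 4 genes of the myofibroblast state (Acta2, Tagln, Cnn1 and Myl9) summed to 113000 to 129000, 496000 to 536000, 131000 to 139000 and 818000 to 923000, and the response of all 4 was higher in knockout cells, by 0.36 to 0.98 on the log2 scale, beside 31.9% of all genes. Under quantile normalisation 3 of the 4 passed. Of the 10 fibroblast markers, the response of 2 was higher and of 5 lower in knockout cells, beside 31.9% and 26.5% of all genes. Under quantile normalisation these counts were 1 and 8. Thy1 and Vim were higher, by 0.33 and 0.30. Pdgfra, Lum, Fbln1, Col3a1 and Dcn were lower (-1.77, -1.34, -1.13, -0.84 and -0.81). The responses of Col1a1, Col1a2 and Fn1 differed by 0.06, -0.01 and -0.02 and did not pass. Col3a1 rose by 0.30 ± 0.04 in wild type and fell by 0.53 ± 0.04 in knockout cells. The macrophage list fell from 130000 to 151000 to 73800 to 78400 in wild type cells and from 110000 to 115000 to 54100 to 59500 in knockout cells. The mesothelial list was 28900 to 30500, 25600 to 26700, 26100 to 26600 and 12600 to 14500, lowest in knockout TGF-β1. The epithelial list, with 6 of 9 markers tested, was 7420 to 8070, 10300 to 11100, 6620 to 6840 and 10500 to 11700, and Epcam and Nkx2-1 were not measured well above background by every array of a group. This list did not move one way either. With TGF-β1, 4 of the 6 rose and 2 fell in wild type cells, beside 41.3% and 27.3% of all genes. In knockout cells 3 rose and 1 fell, beside 46.6% and 35.9%. Cdh1, Krt8 and Krt18 rose in both genotypes. Sftpc fell in both (-4.80 ± 0.25 in wild type, -6.27 ± 0.25 in knockout), and Krt19 fell in wild type cells (-1.39 ± 0.07). The part of these lists in the differences of Jag1, Hes1, Hey2 and Heyl was not tested.

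**Figure D4:**
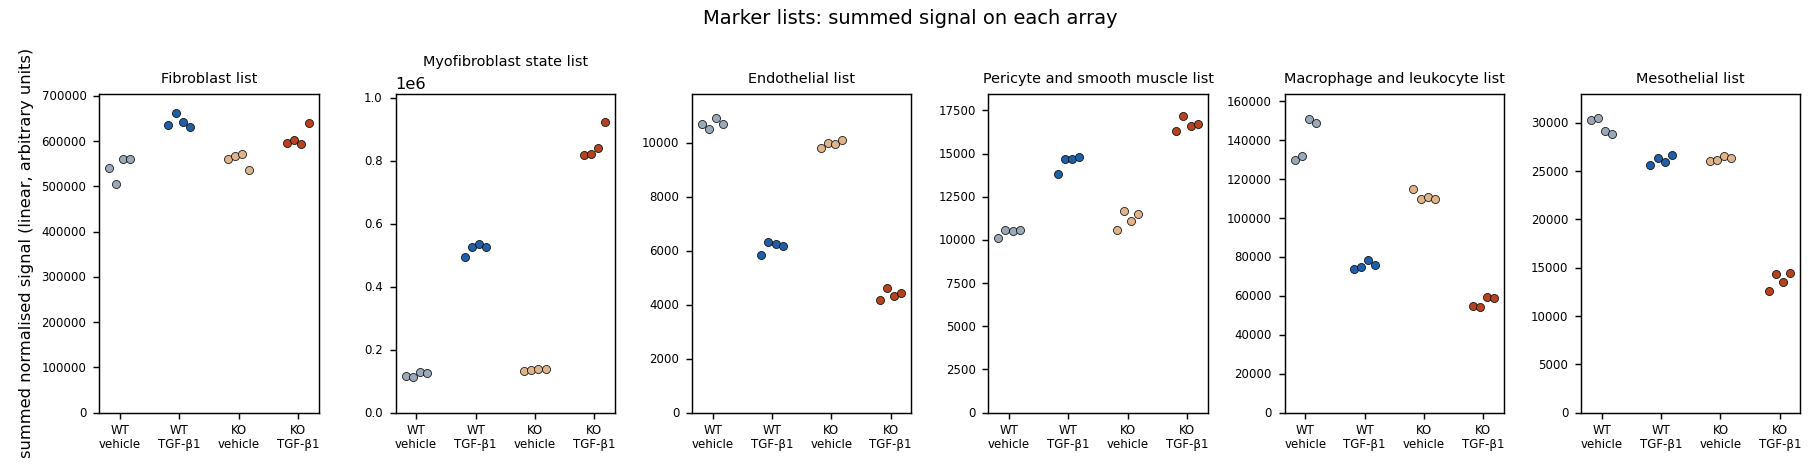
Summed normalised signal (vertical axis, starting at 0, a separate range for each panel) of 6 marker lists on each array, by group (horizontal axis, 4 arrays each). The endothelial and mesothelial sums are lowest in knockout TGF-β1. The sum of the myofibroblast list and that of the pericyte and smooth muscle list, whose members went both ways, are highest there.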

How the data were processed

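RNA of 16 samples was hybridised to 1-colour (Cy3) Agilent arrays, and per the file headers and the submitters' processing notes the deposited spot intensity came from Agilent Feature Extraction 11.0.1.1, with background subtracted. The authors also deposited a table of 9933 probes on a log2 scale, not centred, each column correlating with the log2 intensity of its array at 0.999 or more, and its normalisation and choice of probes are not given in the sources used here. By column, the wild type vehicle medians were 6.595, 6.598, 6.615 and 6.609, the wild type TGF-β1 medians 6.473, 6.466, 6.493 and 6.469, the knockout vehicle medians 6.586, 6.593, 6.567 and 6.58 and the knockout TGF-β1 medians 6.391, 6.38, 6.388 and 6.381.

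Repeated spots were averaged on the log2 scale and arrays were matched at their 75th percentile. After 27 of 56605 probes with outlier marks were left out, 33888 were well above background on all 4 arrays of a group; 0 spots were saturated. Transcript accessions named 32994 probes through a RefSeq table of GRCm38.p6, and the brightest kept probe stood for a gene. The array was designed on mm9, so coordinates are given for RefSeq windows alone. Levels were not compared between probes. With no counts, the number of arrays limits the precision.

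The tests were 2-sided and used limma 3.58.1 (R 4.3.3, files read with version 1.17.8 of data.table), with 1 coefficient per group over 16 arrays and p-values of each of 5 comparisons adjusted over 15394 genes after Benjamini and Hochberg; "passed", "rose" and "fell" mean an adjusted p under 0.05. A ± on a log2 difference gives its standard error, and SD is named where it is used. On simulated data the fit recovered 87.9% to 100% of 2-fold and 41.8% to 68.7% of 1.25-fold changes, with 4.76% to 6.78% false calls. In each simulation 66 or 67 of 15394 genes were changed at each fold, with independent normal noise and no shift between arrays. Far more genes were called in the real data, so these rates need not hold there. The Notch genes, the pathway and marker lists and the alternatives were chosen with earlier results of these data known. Named were the 10 Notch genes and, per comparison, up to 10 other pathway genes with the largest called differences; further list genes are given as values. Alternatives were normexp with an offset of 50 on the median spot signal, quantile and median scaling, 2 other filters, the mean of a gene's probes, the deposited table, only the compared groups, slide and replicate number as blocks, each slide alone, and each array left out. Of the further pathway genes, 1 is not reported here.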

Additional observations from a re-analysis of the deposited data

Results flagged for a closer look

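The responses of 5 Notch genes to TGF-β1 differed between the genotypes by the interaction test, in knockout minus wild type cells by 1.98 for Jag1, 1.88 for Heyl, 1.73 for Hey2, 1.46 for Hes1 and -0.31 for Notch2 on the log2 scale. In Jag1 the rise stood in knockout cells, and in Hey2, which was close to background, the fall stood in wild type cells. That fall of Hey2 did not pass under normexp correction. Hes1 rose and Heyl fell in both, Hes1 further in knockout and Heyl further in wild type cells. Notch2 fell in knockout cells.

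A pair of single arrays stood apart from the other 3 of their group. The wild type TGF-β1 array of replicate 2 had a normalised log2 signal of 3.74 for Jag2, against 2.58 to 2.61 on the other 3, and none of the 4 lay well above background. The wild type vehicle array of replicate 1 had 6.73 for Hes1, against 6.59 to 6.61. Chance alone sets an array apart in about 1 in 20 such groups. Without each array in turn, the wild type fall of Jag2 ranged from -1.88 to -1.49 and the wild type rise of Hes1 from 0.28 to 0.36, and both passed each time.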

How the results depend on the processing

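The calls of Jag1, Hes1, Heyl and Dll1 for TGF-β1, and of Jag1, Hes1, Heyl and Hey2 between genotypes with TGF-β1 and between responses, kept their direction and passed under every alternative run that tested the gene. Signal near background limits Jag2, Hey2, Nrarp and Dll4. Except where the text says otherwise, the cause of a change was not tested.

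Beside 5 Notch genes called for TGF-β1 in wild type cells, normexp correction called 3, and a filter on all 16 arrays, which left 7 to test, also 3. Beside 8 in knockout cells, median scaling called 5, as did the deposited table, which holds 6. Beside 1 with vehicle, normexp and the replicate block called 2, and the deposited table, no filter and each slide alone called 0. Replicate numbers were only shared: deviations of same-numbered arrays correlated at -0.03 to 0.14, with 1 to 3 of 4 arrays closest to their own number. As paired, with the replicate block, 10788, 12847, 2292, 11065 and 9312 genes were called for TGF-β1 in wild type, TGF-β1 in knockout, genotype with vehicle, genotype with TGF-β1 and the interaction, against 10560, 12710, 2036, 10805 and 8978; Hey2 with vehicle then passed at 0.32, and no other Notch call changed.

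The deposited table tests 5257 genes and 17 other pathway genes, which by itself lowers counts. In the same order it called 4376, 4841, 1160, 4213 and 3825 genes, and of the pathway genes 16 in each genotype, 15 between genotypes with TGF-β1 and 15 for the interaction. Median scaling called 11 pathway genes with vehicle, against 7. On slide 1, with fewer arrays, 197 genes and 1 pathway gene were called with vehicle, 24 pathway genes for TGF-β1 in wild type against 37, and 5620 genes and 23 pathway genes for the interaction, against 39. On slide 2, 1048 genes and 2 pathway genes were called with vehicle.

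Of called genes, 60.2% were higher for TGF-β1 in wild type, 74.6% with median scaling and 46.1% in the deposited table. For TGF-β1 in knockout cells it was 56.5%, 69.5% with median scaling, 48.6% under quantile normalisation and 46.9% in the deposited table. For genotype with vehicle it was 53.4%, 70.9% with median scaling, 38.9% in the deposited table, and for genotype with TGF-β1 56.6%, 68.7% with median scaling, 46.8% under quantile normalisation and 47.1% in the deposited table. For the interaction it was 54.6%, 43.6% under quantile normalisation and 48.1% in the deposited table. Median scaling moved the median of all genes from 0.08 to 0.23 in wild type and from 0.10 to 0.34 in knockout cells, and the deposited table moved it to -0.08 and -0.36.

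These signs turned, all of them for differences that had not passed except the knockout fall of Jag2. Normexp gave Jag2 0.02 for TGF-β1 in knockout, 0.02 with vehicle and 0.10 between genotypes with TGF-β1, Hey2 0.14 in knockout, and Dll1 0.11 between genotypes with TGF-β1 and 0.00 for the interaction. Quantile normalisation gave Notch1 0.01 in wild type, Hey2 0.15 in knockout and Jag2 -0.06 for the interaction. Median scaling gave Notch1 0.10, Notch2 0.13, Jag1 0.10 and Hey1 0.12 in wild type and Hey2 0.15 in knockout. The deposited table gave Hey2 0.28 in knockout, and Jag2 0.20 and Dll1 0.00 between genotypes with TGF-β1. Slide 1 gave Hey1 0.12 in wild type and Jag2 -1.11 for the interaction, and slide 2 gave Jag2 0.53 between genotypes with TGF-β1. The interaction of Jag2, 0.06 over both slides, passed on slide 2 at 1.22. That interaction uses wild type vehicle, the group through which Jag2 entered the tests.

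Leaving out each array in turn, the calls with vehicle ranged from 0 to 1 Notch genes and from 1486 to 2078 genes. For TGF-β1 in wild type, Notch1 ranged from -0.15 to 0.11, Notch2 from -0.06 to 0.02, Jag1 from -0.12 to 0.00 and Hey1 from -0.08 to 0.02. Hey2 ranged from -0.18 to 0.06 in knockout, Notch2 from 0.00 to 0.08 with vehicle and Jag2 from -0.24 to 0.34 for the interaction.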

Other observations

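In the authors' deposited table, which holds 6 of the 10 Notch genes, the group means in the order wild type vehicle, wild type TGF-β1, knockout vehicle and knockout TGF-β1 were 8.88, 8.82, 8.96 and 10.77 for Jag1 on its log2 scale. Hes1 had 6.55, 6.96, 6.75 and 8.61 in the authors' deposited table. Heyl had 7.64, 5.16, 7.54 and 7.00, and Hey2 had 3.59, 2.32, 4.04 and 4.32, in the authors' deposited table. Dll1 had 5.48, 4.87, 5.70 and 4.87, and Jag2 had 4.33, 2.95, 3.87 and 3.15, in the authors' deposited table. Notch1, Notch2, Hey1 and Nrarp are not among the probes of that table.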
